A study of Mus musculus with 6 samples.

Results

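Red blood cells and their precursors are known for a small set of miRNAs, of which 4 mature forms were followed in the mouse thymus: mmu-miR-451a, the 2 strands of miR-144 (mmu-miR-144-3p and mmu-miR-144-5p) and mmu-miR-486a-5p, written below without the species prefix. They were taken by name from a table of 1390 mature miRNAs. All 4 were in the table, and all 4 were among the 519 miRNAs that passed the low-count filter. They were measured by small-RNA sequencing of whole thymus from C57BL wild-type mice aged 5 weeks. The irradiated group (n = 3 mice) was exposed to an X-ray dose of 6 Gy, given at a distance of 40 cm and a rate of 800 cGy/min, and the thymus was taken 24 h later. The control group (n = 3 mice) was not irradiated.

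The genes of miR-144 and miR-451a lie side by side and are read into the same primary transcript, which the erythroid transcription factor GATA1 switches on as red-cell precursors mature. MiR-451a is among the most abundant miRNAs of red cells. It is made without Dicer: the Argonaute protein Ago2 cuts its short hairpin. MiR-144 is cut by Dicer in the usual way and gives a strand from each arm. MiR-486 lies inside Ank1, the gene of the red-cell membrane protein ankyrin-1, and is made in red-cell precursors as well as in heart and skeletal muscle. Red cells have no nucleus but keep these miRNAs, so any tissue that holds blood holds them too.

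The mature sequences, as listed in the deposited table, are shown because the seed (bases 2 to 8 from the 5′ end, in capitals) sets which messenger RNAs a miRNA can bind.
miR-451a: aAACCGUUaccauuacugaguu
miR-144-3p: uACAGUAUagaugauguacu
miR-144-5p: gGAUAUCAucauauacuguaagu
miR-486a-5p: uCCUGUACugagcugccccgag
The 4 seeds differ from each other, and no other miRNA of the table carries any of them. The sequences of miR-451a and both miR-144 strands were identical to those of RefSeq (GRCm38.p6). The 4 mature forms are 20 to 23 bases long, and the counts carry no correction for length.

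The hairpins of miR-451a and miR-144 are shown because they give rise to their products in different ways (mature bases in capitals).
miR-451a hairpin: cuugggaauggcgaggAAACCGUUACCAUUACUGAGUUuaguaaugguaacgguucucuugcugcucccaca
miR-144 hairpin, 3p strand: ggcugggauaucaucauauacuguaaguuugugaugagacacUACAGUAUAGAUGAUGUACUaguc
miR-144 hairpin, 5p strand: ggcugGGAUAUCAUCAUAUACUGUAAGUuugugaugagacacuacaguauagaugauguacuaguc
In the fold predicted by RNAfold, the terminal loop of the miR-451a hairpin spans bases 35 to 38, and the mature form spans bases 17 to 38. It thus holds 17 paired bases of the 5′ arm, 5 unpaired bases and no base of the 3′ arm. In the miR-144 hairpin the loop spans bases 31 to 36, and each mature strand lies outside it, at bases 6 to 28 for miR-144-5p and 43 to 62 for miR-144-3p.

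Matched by their hairpin sequence to GENCODE M21, both genes lie on the plus strand of chromosome 11 in GRCm38. Mir144 is at chr11:78073005-78073070 and Mir451a at chr11:78073170-78073241, with 99 bases between them, and neither overlaps a protein-coding gene. The miR-451b gene occupies the opposite strand of the Mir451a interval, and its hairpin is the exact reverse complement of that of miR-451a. MiR-451b had 0 counts in all 6 libraries. A library with 0 counts may still hold as many as 3 by counting error, a limit of 0.323 to 0.388 CPM across the libraries (CPM is a read count over its library total, set to a common scale).

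The miR-486a hairpin (Mir486) is at chr8:23142555-23142682 on the plus strand, within Ank1 (chr8:22974844-23150497) and outside its exons. The miR-486b hairpin, annotated as Mir3107, lies within the same interval on the minus strand. It is the exact reverse complement of 90 of the 128 bases of the miR-486a hairpin. The antisense gene Gm15816 also spans the interval. The strands of the 2 hairpins are nearly self-complementary, which the next lines show with the complementary bases in capitals.
miR-486a-5p: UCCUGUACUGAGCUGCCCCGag
miR-486a-3p: CGGGGCAGCUCAGUACAGGAu
miR-486b-3p: CGGGGCAGCUCAGUACAGGA
A run of 20 bases of miR-486a-5p is the reverse complement of miR-486b-3p and of the first 20 bases of miR-486a-3p.

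The counts of these 3 miR-486 rows were nearly the same in every library. In irradiated replicates 1, 2 and 3, miR-486a-5p had 1996, 6001 and 4295 counts, and miR-486a-3p had 1992, 6087 and 4356. In control replicates 1, 2 and 3, miR-486a-5p had 1907, 2191 and 2757 counts, and miR-486a-3p had 1900, 2176 and 2741. The 3 rows differed by at most 1.69% in any library. Of 42 pairs of opposite arms with at least 100 counts in every library, the miR-486a pair alone lay within 3% throughout, and the next closest pair reached a difference of 45.5%. Among 10 other pairs of rows with at least 19 bases of antisense sequence and the same count minimum, 7 also lay within 3%. The miR-486a-5p row therefore cannot be told apart from its 3p partners in this table, and the rows are 1 measurement, not 3. MiR-486b-5p is not listed in the table.

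The red-cell miRNAs were a small part of each library. Together the 4 members held 0.0538%, 0.501% and 0.205% of the counts in irradiated replicates 1, 2 and 3, against 0.0425%, 0.0674% and 0.0723% in control replicates 1, 2 and 3. The 95% Wilson intervals of these shares were narrow, such as 0.496% to 0.506% in irradiated replicate 2. The library totals were 8532223 to 9287017 counts in irradiated and 7730641 to 8522928 in control libraries. The share averaged 0.253% ± 0.227 in irradiated and 0.0607% ± 0.016 in control libraries (SD, n = 3 each). The exact two-sided permutation p was 0.3, and 3 against 3 libraries allow no p under 0.1. Irradiated replicates 2 and 3 stood above every control library, and irradiated replicate 1 lay within the control range. This split between the irradiated libraries holds for every member below. A share also depends on the counts of all other miRNAs. The 6 listed lymphoid miRNAs were miR-181a-5p, miR-181b-5p, miR-128-3p, miR-142a-3p, miR-142a-5p and miR-150-5p. Together they held 0.675% to 1.01% of the counts in irradiated and 12.6% to 16.6% in control libraries. In bulk thymus, more red cells, more of a miRNA per red cell and fewer counts from other cells cannot be told apart.

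With all 6 libraries in the fit, miR-451a and both miR-144 strands rose after irradiation and miR-486a-5p did not pass the test. The test was edgeR's quasi-likelihood test, with trimmed-mean (TMM) scaling and Benjamini-Hochberg adjustment over all 519 tested miRNAs. The threshold was an adjusted p of 0.05, and levels are TMM-scaled CPM. Thus 3 of the 4 members were called higher, where 27.7% of all tested miRNAs were called higher. In none of the 4 did all irradiated libraries lie above all control libraries, which was so for 32.0% of all tested miRNAs. The median log2 fold change was 3.01 over the 4 members and 0.01 over all tested miRNAs.

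MiR-144-3p (mmu-miR-144-3p), the strand with the better known targets, was at 9.26, 217 and 115 CPM in irradiated replicates 1, 2 and 3, against 8.56, 9.00 and 12.0 CPM in control replicates 1, 2 and 3. Irradiated replicates 2 and 3 were 22.0 and 11.6 times the control mean, and irradiated replicate 1 was 0.939 times the control mean and within the control range. The groups thus overlapped through a single library. The level averaged 114 ± 104 CPM in irradiated and 9.86 ± 1.89 CPM in control libraries (SD, n = 3 each). The log2 fold change was 3.53 ± 1.00 (SE, edgeR adjusted p of 0.0203), the 5th highest of the 519.

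MiR-144-5p (mmu-miR-144-5p), made from the other arm of the same hairpin, was at 3.78, 73.1 and 44.4 CPM in irradiated replicates 1, 2 and 3, against 2.71, 3.62 and 6.13 CPM in control replicates 1, 2 and 3. The same 2 irradiated libraries were high, and the remaining irradiated library lay among the controls. The control values rest on 19, 39 and 50 counts, so they are the least precise of the set. The log2 fold change was 3.28 ± 0.98 (SE, edgeR adjusted p of 0.025), the 7th highest.

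MiR-451a (mmu-miR-451a) was at 335, 4095 and 1411 CPM in irradiated replicates 1, 2 and 3, against 234, 268 and 374 CPM in control replicates 1, 2 and 3. Irradiated replicate 2 was 14.04 times and irradiated replicate 3 was 4.84 times the control mean. Irradiated replicate 1, at 1.15 times the control mean, lay above 2 control libraries and below the third. The level averaged 1947 ± 1936 CPM in irradiated and 292 ± 73.3 CPM in control libraries (SD, n = 3 each). The log2 fold change was 2.74 ± 0.83 (SE, edgeR adjusted p of 0.0264), the 15th highest.

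MiR-486a-5p (mmu-miR-486a-5p) was at 260.4, 716 and 456 CPM in irradiated replicates 1, 2 and 3, against 272, 203 and 338 CPM in control replicates 1, 2 and 3. The order of the irradiated libraries was that of the other members, over a narrower range: irradiated replicate 2 was 2.64 times the control mean. The log2 fold change was 0.82 ± 0.37 (SE, edgeR adjusted p of 0.0792). The rows of miR-486a-3p (0.84, adjusted p of 0.0744) and miR-486b-3p (0.82, adjusted p of 0.0787) were likewise past no threshold in edgeR. In the authors' deposited table the adjusted p is 0.0549 for miR-486a-5p and 0.0488 for miR-486a-3p, so these near-identical rows fall on opposite sides of 0.05 there. Of the 741 miRNAs with an adjusted p in the authors' deposited table, 21.6% are higher and under 0.05. The authors' deposited table gives log2 fold changes of 2.72 for miR-451a, 3.51 for miR-144-3p and 3.28 for miR-144-5p, with adjusted p-values of 6.6e-06, 0.0018 and 2.5e-06.

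**Figure D1:**
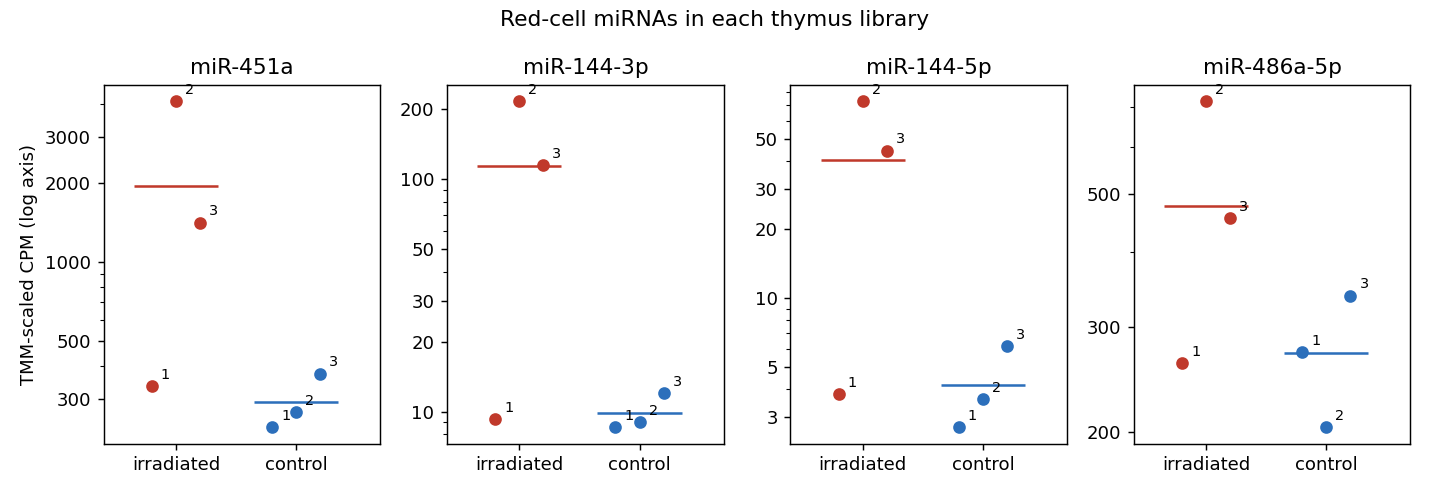
TMM-scaled CPM (log axis) of each red-cell miRNA in the 3 irradiated and 3 control libraries, with replicate numbers beside the points and a line at each group mean. Irradiated replicates 2 and 3 lie above all controls in each panel, and irradiated replicate 1 lies within the control range.

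**Figure D2:**
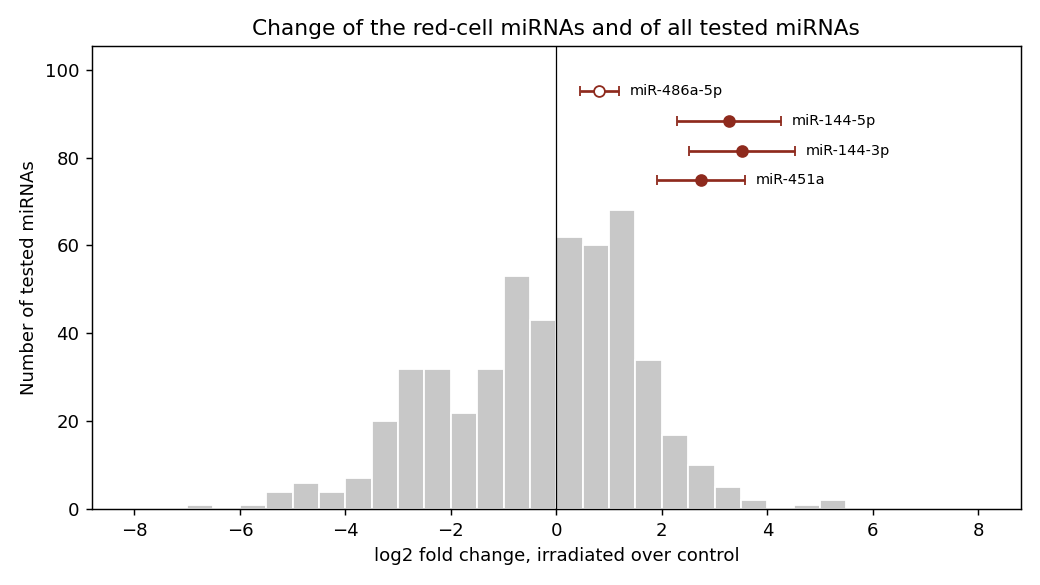
Histogram of the log2 fold change (irradiated over control) of the 519 tested miRNAs, with the 4 members above it as points with SE bars. Filled points passed the edgeR threshold and the open point, miR-486a-5p at 0.82, did not.

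The calls depended on which libraries were in the fit. With irradiated replicate 1 as the only irradiated library against the 3 controls, miR-451a changed by 0.41 on the log2 scale. In that fit miR-144-3p changed by 0.12, miR-144-5p by 0.07 and miR-486a-5p by 0.15. A lone library has no spread of its own, and its spread was assumed to equal that of the controls. That fit was chosen after seeing the data. Without irradiated replicate 1 all 4 members were called higher, at 3.18 for miR-451a, 4.03 for miR-144-3p, 3.78 for miR-144-5p and 1.08 for miR-486a-5p (edgeR adjusted p of 0.0027 or less). Without irradiated replicate 2, miR-451a changed by 1.80 (0.0164) and miR-144-3p by 2.87 (0.0464) and both passed, while miR-144-5p at 2.76 did not (0.0563). Without any 1 of the control libraries none of the 4 was called, with edgeR adjusted p-values of 0.0532 to 0.253 and log2 fold changes of 0.63 to 3.73, although 3, 3 and 4 members had an unadjusted p under 0.05 without control replicate 1, 2 and 3. Among all tested miRNAs, 127 of 563, 110 of 544 and 127 of 550 were called higher without control replicate 1, 2 and 3. Without irradiated replicate 1 this was so for 183 of 559, and without irradiated replicate 2 for 153 of 537. With all libraries, DESeq2 called all 4 members and limma-voom called 0, where they called 160 and 133 of all 519 tested miRNAs higher. The adjusted p (edgeR, limma or DESeq2) was also compared over the alternatives with more than 1 irradiated library. It ranged from 1.0e-06 to 0.145 for miR-451a and from 2.8e-08 to 0.135 for miR-144-3p. For miR-144-5p it ranged from 1.5e-07 to 0.143, and for miR-486a-5p from 0.0027 to 0.253.

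**Figure D3:**
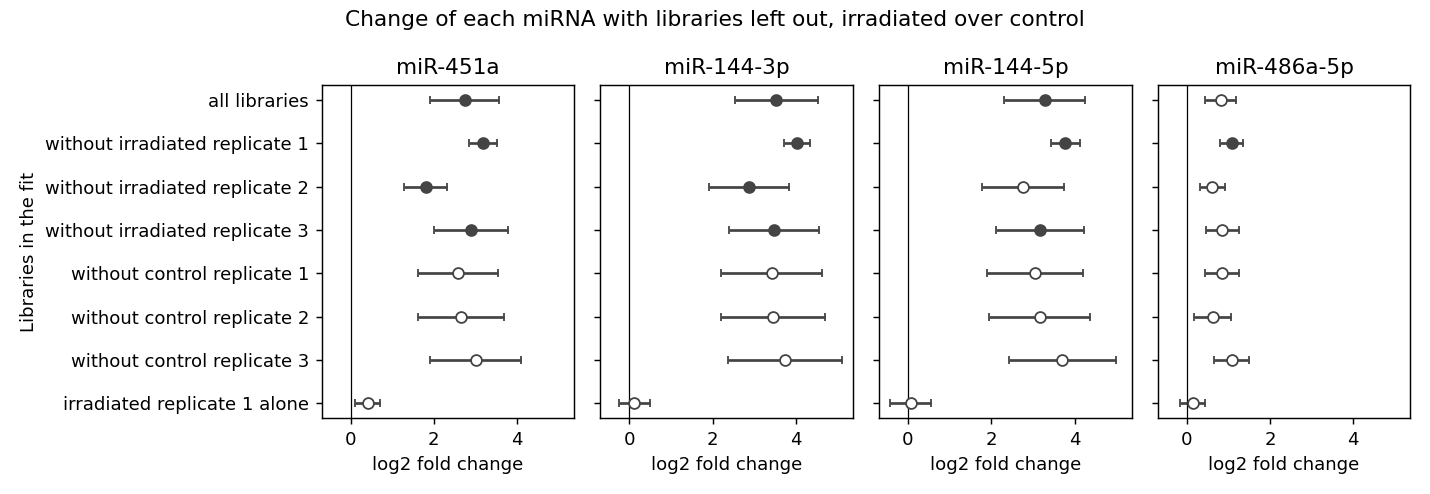
Log2 fold change (irradiated over control) with its SE for each member, with all libraries, with each library left out and with irradiated replicate 1 as the only irradiated library. Filled points have an edgeR adjusted p under 0.05, and with irradiated replicate 1 alone the values lie between 0.07 and 0.41.

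MiR-451a and both miR-144 strands varied far more among irradiated than among control libraries. The highest irradiated library was 23.4 times the lowest for miR-144-3p, 19.3 times for miR-144-5p and 12.2 times for miR-451a, against 1.41, 2.26 and 1.60 times among controls. These 3 ranked 6th, 7th and 11th in that irradiated range among the 311 miRNAs that averaged at least 10 CPM and were counted in every library. The 2 highest of the 311, miR-1b-5p and miR-1a-3p, are antisense rows at most 0.224% apart. Both also stand above the members in log2 fold change, so each rank counts near-identical rows separately. The median range of the 311 was 1.74 times in irradiated and 1.42 times in control libraries. MiR-486a-5p, with a range of 2.75 times in irradiated and 1.66 times in control libraries, ranked 51st. The order of irradiated replicate 2 above 3 above 1, which all 4 members followed, was seen in 84 of the 311 miRNAs (27.0%).

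Ratios within a library need no scaling and show whether the members kept their proportions. None of 3 such ratios differed detectably between the groups, in a design that allows no p under 0.1. The ratio of miR-144-3p to miR-144-5p counts was 2.45, 2.97 and 2.59 in irradiated replicates 1, 2 and 3, against 3.16, 2.49 and 1.96 in control replicates 1, 2 and 3. The highest of these ratios had the widest 95% Wilson interval, 1.90 to 5.26 in control replicate 1, where the strands had 60 and 19 counts. The mean log2 ratio was 1.41 ± 0.15 in irradiated and 1.30 ± 0.33 in control libraries (SD, n = 3 each), a difference of 0.11 (exact two-sided permutation p of 0.7, 0.7 adjusted over the 3 ratios).

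The ratio of miR-451a to miR-144-3p, 2 products of 1 primary transcript, was 36.1, 18.9 and 12.3 in irradiated replicates 1, 2 and 3, against 27.3, 29.7 and 31.1 in control replicates 1, 2 and 3. In both libraries rich in red-cell miRNAs it was below every control library beyond the counting error, with a 95% Wilson interval of 18.0 to 19.8 in irradiated replicate 2 and 11.6 to 13.1 in irradiated replicate 3. In irradiated replicate 1 the interval (28.5 to 45.7) covered all control values but 27.3. The difference in mean log2 ratio was −0.53, with 4.34 ± 0.78 in irradiated and 4.87 ± 0.10 in control libraries (SD, n = 3 each, exact two-sided permutation p of 0.4, 0.6 adjusted over the 3 ratios).

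The ratio of miR-451a to miR-486a-5p was 1.28, 5.72 and 3.09 in irradiated replicates 1, 2 and 3, against 0.858, 1.32 and 1.11 in control replicates 1, 2 and 3. Irradiated replicates 2 and 3 were above all controls, and irradiated replicate 1 was below control replicate 2. The difference in mean log2 ratio was 1.39, with 1.50 ± 1.08 in irradiated and 0.11 ± 0.31 in control libraries (SD, n = 3 each, exact two-sided permutation p of 0.2, 0.6 adjusted over the 3 ratios).

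**Figure D4:**
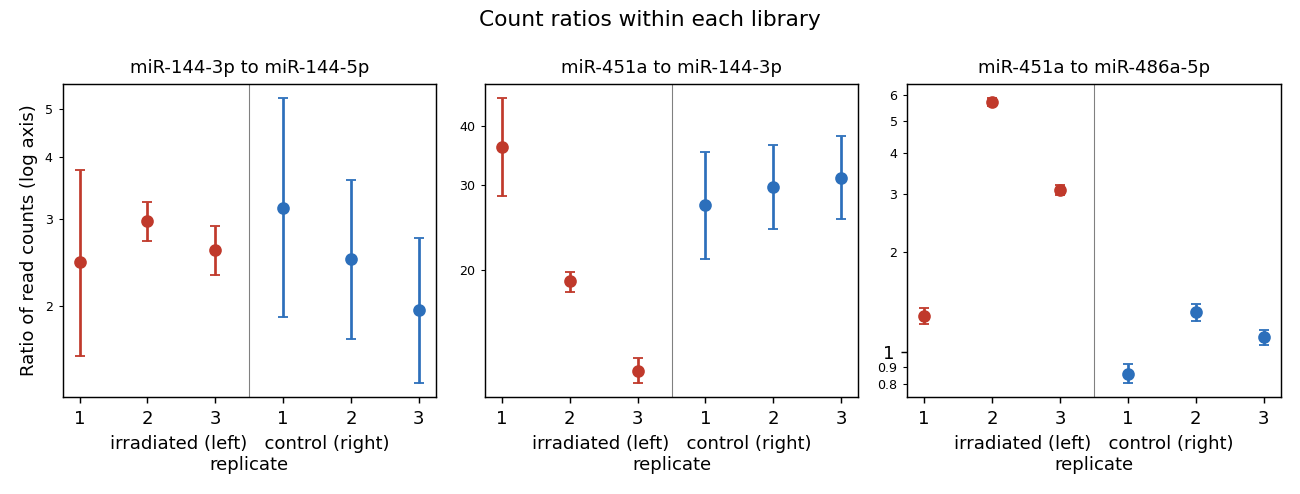
Ratio of read counts (log axis) within each library for 3 pairs of red-cell miRNAs, irradiated libraries left and control libraries right, with 95% Wilson intervals for counting error. The miR-144 strands keep ratios of 1.96 to 3.16, whereas miR-451a to miR-144-3p is lowest in irradiated replicates 2 and 3.

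Some miRNAs of striated muscle were high in the same irradiated libraries as the members. Of 8 listed, 4 passed the low-count filter and 3 rose after irradiation, where 27.7% of all tested miRNAs were called higher, with a list median log2 fold change of 4.41. Their summed level was 538 to 19810 CPM of the library total in irradiated and 171 to 482 CPM in control libraries. MiR-1a-3p, the main miRNA of heart and skeletal muscle, was at 527, 19377 and 13225 CPM in irradiated replicates 1, 2 and 3, against 191, 258 and 459 CPM in control replicates 1, 2 and 3 (log2 fold change 5.19 ± 1.24 SE, edgeR adjusted p of 0.0101). MiR-133a-3p, made with miR-1, had levels of 13.8, 419 and 146 CPM in the irradiated libraries, against 7.28, 4.45 and 8.34 CPM in the controls (4.85 ± 1.16 SE, edgeR adjusted p of 0.0104).

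Irradiated replicates 2 and 3 were thus high in miR-1a-3p and miR-133a-3p as in miR-451a and the miR-144 strands. MiR-206-3p, the other muscle miRNA called higher (3.97 ± 1.06 SE, edgeR adjusted p of 0.0161), did not match them. It was at 61.2, 320 and 24.1 CPM in irradiated replicates 1, 2 and 3, against 3.57, 9.09 and 13.1 CPM in control replicates 1, 2 and 3. MiR-208a-3p, a heart miRNA from a myosin gene, had 0, 193 and 54 counts in irradiated replicates 1, 2 and 3, against 0, 0 and 4 counts in control replicates 1, 2 and 3. MiR-208b-3p was at 0 or 1 count in every library. In irradiated replicate 1 miR-1a-3p was 1.74 times and miR-133a-3p 2.07 times the control mean, against 1.52 and 1.25 times in control replicate 3, the highest of the controls. MiR-1a-3p did not pass without irradiated replicate 2 (4.74, edgeR adjusted p of 0.0624, and 7.9e-09 to 0.0925 under the alternatives). MiR-133a-3p did not pass without control replicate 3 (5.08, edgeR adjusted p of 0.0556, and 1.8e-08 to 0.0932 under the alternatives). MiR-486 is made in muscle as well as in red-cell precursors, and the part of muscle in its values was not tested.

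MiR-223-3p, a miRNA of granulocytes and other myeloid cells, was at 12.0, 51.2 and 83.7 CPM in irradiated replicates 1, 2 and 3, against 21.3, 34.6 and 41.7 CPM in control replicates 1, 2 and 3. It too was lowest in irradiated replicate 1, and it did not pass (0.59, edgeR adjusted p of 0.388). MiR-223-5p, from the same hairpin, was at 32.2, 54.1 and 74.3 CPM in irradiated replicates 1, 2 and 3. In control replicates 1, 2 and 3 it was at 9.41, 15.4 and 15.5 CPM, so irradiated replicate 1 was above every control. Of 4 listed myeloid miRNAs 1 rose, miR-223-5p, a share near the 27.7% of all tested miRNAs called higher. The summed level was 44.9 to 167 CPM in irradiated and 28.2 to 75.8 CPM in control libraries. The direction of miR-223-3p was not stable, since it changed by −0.04 without irradiated replicate 3. MiR-122-5p, a liver miRNA that also circulates in plasma, had 15, 41 and 37 counts in the irradiated libraries and 9, 4 and 3 in the controls. It was called higher on these few counts (2.47 ± 0.575 SE, edgeR adjusted p of 0.0046), with every irradiated library above every control. Of 2 listed miRNAs of blood-vessel lining 1 rose. MiR-126a-3p was at 14864, 23675 and 17565 CPM in irradiated replicates 1, 2 and 3, against 5032, 4340 and 4472 CPM in the controls (2.02 ± 0.26 SE, edgeR adjusted p of 1.5e-04), so it was high in irradiated replicate 1 too. MiR-126a-5p, from the same hairpin, was at 814, 867 and 629 CPM in the irradiated libraries, against 724, 718 and 734 CPM in the controls, and did not pass (0.09 ± 0.23 SE, edgeR adjusted p of 0.768). The part of blood and of these other cells in the levels of the members was not tested.

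No other listed miRNA that red cells carry in quantity was called higher, where 27.7% of all tested miRNAs were. Of 8 listed, all tested, 6 fell, where 33.5% of all tested miRNAs were called lower, and 2 did not pass, with a median log2 fold change of −2.90. MiR-22-3p (edgeR adjusted p of 0.0509) was above every control, at 2911, 2820 and 2344 CPM in irradiated replicates 1, 2 and 3. Its controls were at 1892, 1804 and 1815 CPM. MiR-210-3p (0.285) was at 8.48, 21.5 and 15.5 CPM, against 20.8, 18.6 and 23.1 CPM. MiR-210-3p and miR-25-3p (1095, 1569 and 1545 CPM) kept the members' order of irradiated libraries, and the others listed did not. MiR-16-5p was at 2240, 1322 and 1636 CPM in irradiated replicates 1, 2 and 3, against 9682, 7832 and 11530 CPM in control replicates 1, 2 and 3 (−2.48 ± 0.29 SE). MiR-92a-3p was at 461, 427 and 413 CPM in the irradiated libraries, against 8080, 3915 and 5333 CPM in the controls (−3.74 ± 0.32 SE). The irradiated libraries were alike in miR-92a-3p, whereas miR-16-5p was highest in irradiated replicate 1. MiR-16-5p and miR-92a-3p are made by most blood cells, lymphocytes included, and the part of lymphocytes in their levels was not tested. MiR-181a-5p, a marker of thymocytes, was at 2178 to 4227 CPM in irradiated and 61698 to 117812 CPM in control libraries. Of 6 listed lymphoid miRNAs 5 fell and 1 did not pass, beside the same 33.5% called lower among all. They held 12.6% to 16.6% of the counts in control libraries, which are labelled thymus.

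Of 7 listed miRNAs that decline in, or restrain, red-cell maturation, 1 rose, 1 fell and 5 did not pass, where 27.7% of all tested miRNAs were called higher and 33.5% lower. MiR-222-3p, which holds back the growth-factor receptor gene Kit, changed by 1.39 ± 0.26 (SE, edgeR adjusted p of 0.0014). MiR-103-3p changed by −0.69 ± 0.27 (SE, edgeR adjusted p of 0.0482). Neither followed the members among irradiated libraries, as miR-222-3p had levels of 121, 111 and 132 CPM in irradiated replicates 1, 2 and 3, against 45.5, 40.5 and 53.6 CPM in control replicates 1, 2 and 3.

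**Figure D5:**
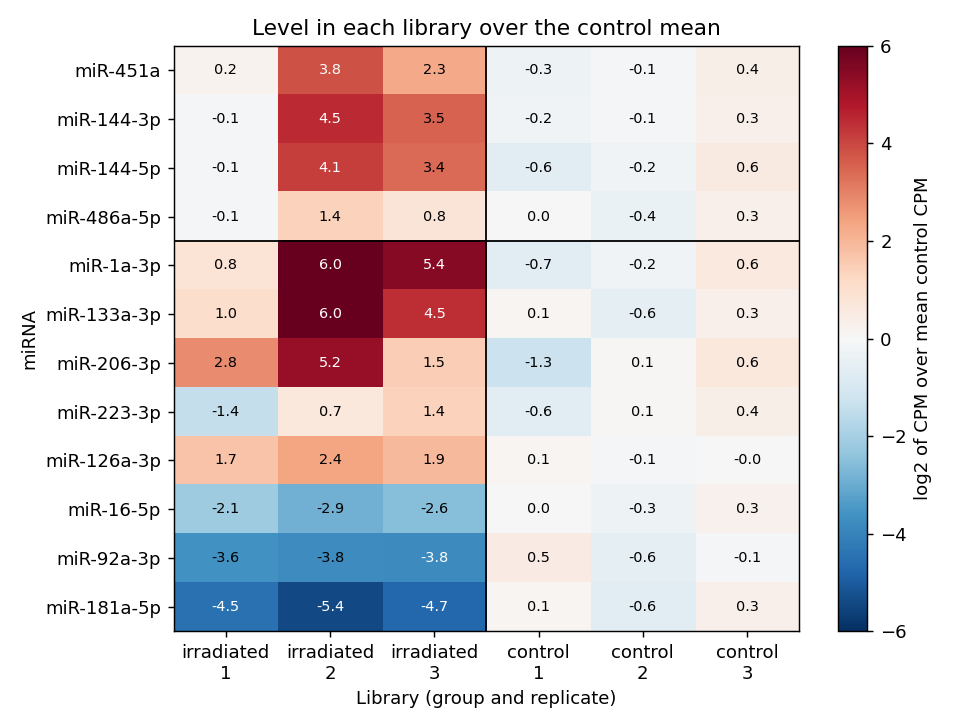
Level of each miRNA in each library over its control mean, as log2 of TMM-scaled CPM, irradiated libraries left and control libraries right, with the 4 members above the line. The members and the muscle miRNAs miR-1a-3p and miR-133a-3p are highest in irradiated replicates 2 and 3. The muscle miRNA miR-206-3p is higher in irradiated replicate 1 than in irradiated replicate 3. MiR-16-5p, miR-92a-3p and miR-181a-5p are low in all 3 irradiated libraries.

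The profiles most like those of the members were found by the root-mean-square difference of log2 levels, each centred on its mean over the 6 libraries, among 305 miRNAs with a mean of at least 10 CPM. The members and the other 2 miR-486 rows were not among these 305. The miR-144 strands were closest to each other, at 0.22, and miR-451a lay 0.51 from miR-144-3p and 0.47 from miR-144-5p. MiR-486a-5p lay further from all of them, at 0.95 to 1.37. Outside the members, miR-451a was nearest to miR-193b-3p (0.47), miR-195a-3p (0.48) and miR-30a-3p (0.53). MiR-144-3p was nearest to the muscle miRNA miR-133a-3p (0.66), followed by miR-365-3p (0.74) and miR-193b-3p (0.82). MiR-144-5p was nearest to miR-365-3p (0.72), miR-133a-3p (0.78) and miR-195a-3p (0.79).

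MiR-193b-3p and miR-365-3p are made from a gene cluster known from brown fat. MiR-365-3p was at 1.04, 38.3 and 11.2 CPM in irradiated replicates 1, 2 and 3, against 2.71, 3.06 and 4.17 CPM in control replicates 1, 2 and 3. It was below every control in irradiated replicate 1, and it changed by −1.45 with that library as the only irradiated one. MiR-486a-5p lay only 0.013 from miR-486a-3p and 0.004 from miR-486b-3p, the rows taken as 1 measurement with it. Among the 305 it was nearest to miR-3074-2-3p and miR-24-2-5p (0.25 each), a pair of antisense rows with near-identical counts, and to miR-139-5p (0.27). These distances are a description of 6 libraries that share depth and scaling.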

How the data were processed

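The authors deposited whole-number read counts per mature miRNA, per the file headers. RNA came from TRIzol extraction and libraries from NEBNext kits, per the labels' protocols, while no aligner, counter, genome build or batch is stated (not given in the sources used here). Beside the counts, the authors deposited a log2 fold change and a p-value with its adjusted p-value for irradiated over control, and DESeq2 1.10.1 is named per the submitters' processing notes. Another 6 count columns were not used. The second deposited table repeats the same counts.

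The counts were tested here with edgeR 4.0.16 in R 4.3.3 (TMM factors of 0.823 to 1.39, filterByExpr, robust quasi-likelihood, irradiated over control, all 6 libraries). The SE is the log2 fold change divided by the square root of the F statistic. The test was checked on simulated data with the same spread for every miRNA. That check does not cover miRNAs whose irradiated libraries differ as widely as those of the members. Count ratios used an offset of 0.5 on the log2 scale and exact permutation tests (scipy 1.17.1). Hairpins were folded with RNAfold 2.7.2. Profiles used log2 CPM with a prior count of 2. Wilson intervals and limits from 0 counts cover counting error only, since reads carry no molecular identifiers. Libraries within a group were not copies of each other. The labels give 3 mice per group, taken as 1 library each, and p-values measure the spread between these libraries.

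The members, the lists of other miRNAs and the tests were chosen with earlier results of these data known. Named miRNAs are the 4 members, rows of the same hairpins, fixed miRNAs of each list and the 3 nearest profiles of each member. MiR-206-3p, miR-208a-3p, miR-208b-3p, miR-222-3p, miR-103-3p, miR-122-5p, miR-126a-5p, miR-223-5p, miR-22-3p, miR-210-3p and miR-25-3p were named after their values were seen. Alternatives were other scaling factors, filters, DESeq2 1.42.0, limma-voom (limma 3.58.1), the replicate number as a block, each library left out, and those added after seeing the data.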

Additional observations from a re-analysis of the deposited data

How the results depend on the processing

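All 4 members kept a positive log2 fold change under the 16 alternatives run, but not their calls. With library totals the values were 2.62 for miR-451a, 3.42 for miR-144-3p and 3.17 for miR-144-5p, and with no low-count filter 2.65, 3.44 and 3.20. With limma-voom they were 2.12, 2.65 and 2.56, and with irradiated replicate 1 as the only irradiated library (chosen after seeing the data) 0.41, 0.12 and 0.07. With library totals, no low-count filter and limma-voom 0 of the 4 members passed, against 3 with all libraries in edgeR with TMM. Under these alternatives 3, 2 and 0 members had an unadjusted p under 0.05. Of all tested miRNAs, 106 of 519 were called higher with library totals, 151 of 1244 with no low-count filter and 133 of 519 with limma-voom. The cause of the lost member calls was not tested. MiR-486a-5p passed with median-of-ratios factors (0.91), upper-quartile factors (1.21) and DESeq2 (0.91). Leaving out each library in turn gave 1.80 to 3.18 for miR-451a, 2.87 to 4.03 for miR-144-3p, 2.76 to 3.78 for miR-144-5p and 0.62 to 1.08 for miR-486a-5p. In these fits 0 to 4 members were called, beside 110 to 183 of all tested miRNAs called higher.

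With the replicate number as a block, miR-451a changed by 2.10, miR-144-3p by 2.80, miR-144-5p by 2.72 and miR-486a-5p by 0.72, and no call of a member changed. Same-numbered libraries had correlated deviations of 0.099, −0.024 and 0.23 across miRNAs, against −0.254 to 0.108 for differently numbered ones. Not every library correlated best with its own number. So few libraries cannot show whether those of the same number share more than a number. The block gave 127 higher and 171 lower calls among all miRNAs. Without it edgeR with TMM gave 144 higher and 174 lower, and 87 miRNAs were higher with a mean of at least 10 CPM, where fewer miRNAs were tested. Upper-quartile factors gave 206 higher and 139 lower and moved the median log2 change of all miRNAs to 0.44, against 0.01 with TMM.

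Leaving out each library gave a difference of −0.06 to 0.27 for the log2 ratio of miR-144-3p to miR-144-5p, whose sign turned. Leaving out each library gave −0.94 to −0.16 for miR-451a to miR-144-3p and 0.89 to 1.97 for miR-451a to miR-486a-5p. The summed share of the members differed by 0.0689 to 0.292 percentage points. MiR-223-3p turned to −1.23 and miR-365-3p to −1.45 with irradiated replicate 1 as the only irradiated library, and miR-223-3p ranged from −0.04 to 1.06 over single libraries left out. The 3 nearest profiles of each member were the same with library totals. Keeping rows with an identical mature sequence and identical counts once was not run, since 0 pairs of rows had the same whole mature sequence.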

Other observations

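The near-identity of the miR-486 rows has parallels elsewhere in the table. Rows that are antisense to each other over at least 19 bases and lay within 3% in every library were miR-1a-3p with miR-1b-5p (at most 0.224% apart), miR-126a-5p with miR-126b-3p (0.02%), miR-24-3p with miR-3074-5p (0.141%), miR-24-2-5p with miR-3074-2-3p (1.41%), miR-374b-5p with miR-374c-3p (1.07%) and miR-9-5p with miR-9b-3p (0.413%). MiR-142a-3p and miR-142b had the same count in every library. The pairs miR-129-5p with miR-129b-3p (up to 3.97% apart), miR-30e-3p with miR-30f (up to 146%) and miR-203-3p with miR-203b-5p did not lie within that limit. How the reads were assigned to strands is not given in the sources used here.

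Among the muscle miRNAs, miR-206-3p, which is made in skeletal muscle, did not follow the order of the red-cell miRNAs. It was at 61.2, 320 and 24.1 CPM in irradiated replicates 1, 2 and 3, against 3.57, 9.09 and 13.1 CPM in control replicates 1, 2 and 3, so that irradiated replicate 1 exceeded irradiated replicate 3.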
